A study of Mus musculus with 6 samples.

Results

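The solute carrier genes described here were the 173 genes of the deposited expression table, out of 10780, whose symbol begins with Slc and a family number. Slc2a1, Slc16a3, Slc7a11, Slc7a2, Slc40a1, Slc11a1 and Slc11a2 were left out of the set by its definition, and 6 of these 7 are in the table. The 173 genes belong to 41 families and were sorted by cargo into 13 classes, of which the mitochondrial Slc25 family (36 genes), the amino acid, peptide and amine carriers (27), the metal ion carriers (22), the inorganic ion carriers (21), the nucleotide sugar carriers (20) and the sugar carriers (12) were the largest.

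Solute carriers are membrane proteins that move amino acids, sugars, nucleosides, ions, metals, vitamins and metabolic intermediates across the plasma membrane, the membranes of organelles and the inner membrane of mitochondria. Most work either as facilitators, as symporters that use the sodium or proton gradient, or as exchangers that trade one solute for another. In macrophages they are known for supplying fuel and amino acids when the cell is activated, for moving peptides and nucleosides out of the phagosome and lysosome, and for handling phosphate, zinc and copper.

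The libraries came from RAW264.7, a mouse macrophage-like line that is a virus-transformed tumour line grown in culture. Of the 3 groups, the first had received LPS (lipopolysaccharide, a bacterial cell wall component sensed by Toll-like receptor 4) at 10 ng/ml together with Sal-B, the compound as the labels name it, at 50 μmol/L. The second had received LPS alone at 10 ng/ml, and the third was an untreated control; no library had Sal-B without LPS, so Sal-B was measured only on top of LPS, and the time of treatment is not given in the labels. Each group had 2 libraries, numbered replicate 2 and replicate 3, and the labels do not say that they came from separate cultures, so the spread behind each p-value is that between libraries and may be purely technical.

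Values are FPKM (fragments scaled by transcript length and by library size), given for replicate 2 and then replicate 3 of a group. The FPKM of all genes summed to between 309767 and 374371 per library, and between 8639 and 9847 genes per library reached 1 FPKM. The depth in reads is unknown. The control pair was the least alike: the SD of the log2 difference between its replicates was 0.44, against 0.27 in the LPS pair and 0.19 in the LPS plus Sal-B pair. In FPKM + 1, 9 of the solute carrier genes tested differed more than 2-fold between the control replicates, 3 between the LPS plus Sal-B replicates and 0 between the LPS replicates. Of 9 macrophage markers 8 were in the table, and their summed level was 669.9 and 679.3 FPKM with LPS plus Sal-B, 1493 and 1492 FPKM with LPS and 1858 and 1402 FPKM in control cells. Cd68 and Lyz2 made up much of that sum, and Lyz2 read 61.6 and 61.2 FPKM with LPS plus Sal-B, 191 and 186 FPKM with LPS and 670.5 and 309.9 FPKM in control cells. Other markers had another order: Cd14 was highest with LPS (300.3 and 292 FPKM), and Itgam was lowest with LPS (18.1 and 17.2 FPKM). Of 10 markers of epithelial, fibroblast, endothelial, T, B and natural killer cells, Pecam1 was the 1 in the table, at 0.907 to 1.02 FPKM with LPS plus Sal-B, 0.125 to 0.216 FPKM with LPS and 0.158 to 0.188 FPKM in control cells. The part of these differences in the results below was not tested, and in bulk RNA a lower share of expressing cells and less RNA per cell cannot be told apart.

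Most solute carrier genes had their highest level in control cells, and their totals were lower with LPS and lower again with LPS plus Sal-B. The highest group mean was in the control for 119 of the 173 genes, in LPS cells for 28 and in LPS plus Sal-B cells for 26. The same count was not made over all genes, but the whole table leaned the same way. Its median log2 difference against control was -0.40 with LPS and -0.63 with LPS plus Sal-B. Their summed level was 1423 and 1509 FPKM with LPS plus Sal-B, 1784 and 1704 FPKM with LPS and 2107 and 1928 FPKM in control cells. As a share of all FPKM this was 0.457% and 0.487% with LPS plus Sal-B, 0.482% and 0.455% with LPS and 0.644% and 0.595% in control cells. Both treated groups thus stood below the control on either scale, while LPS plus Sal-B stood below LPS in summed FPKM and overlapped with it as a share. The number of solute carrier genes at 1 FPKM or more was 131 and 133 with LPS plus Sal-B, 143 and 142 with LPS and 159 and 161 in control cells.

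Differences were tested with limma on log2(FPKM + 1) over the 10014 genes that reached 1 FPKM in 2 or more of the libraries, with Benjamini-Hochberg adjustment over all of them and a threshold of 0.05. Of the 173 solute carrier genes 163 were tested. Of these, 20 had fewer than 2 treated libraries at 1 FPKM and so entered the test through the control, where they were high. They make up 17 of the 81 genes called lower below and support nothing. The counts below, by class and by scaling, still hold them. Where one of them is described, its values are given with no test. Another gene, a metal ion carrier, reached 1 FPKM in the LPS libraries alone, where it was high, and supports nothing either. Some genes, Slc12a7 among them, were under 1 FPKM in both control libraries and entered through treated libraries, where they were high. Against the control these support nothing, and the counts below still hold them. When a gene had to reach 1 FPKM in 4 libraries to be tested, 19 solute carriers were called higher and 63 lower with LPS against control. Log2 differences are given ± SE, and on this scale they understate the change of genes with low values.

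With LPS against control, 20 of the 163 tested genes were called higher and 81 lower. Over all genes tested, 14.2% were called higher and 48.9% lower (63.1% in either direction), so the shares of solute carriers called, 12.3% and 49.7%, were close to those of the whole table. The median log2 difference was -0.43 over the solute carriers and -0.40 over all genes. The balance rested on the scaling: with the median of expressed genes set equal between libraries the calls were 41 higher and 45 lower, with equal FPKM totals 13 and 94, and with quantile normalization 40 and 36, while the all-gene median stood at -0.03, -0.56 and -0.04. Under every one of these scalings 13 higher and 34 lower calls held, which is 7.98% and 20.9% of the solute carriers tested, against 10.4% and 23.0% of all genes tested. The 34 lower calls include genes that entered the test through the control, Slc9a9, Slc10a3 and Slc25a35 among them. The 13 higher calls include Slc12a7, which entered through the treated libraries.

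With LPS plus Sal-B against LPS, 11 solute carriers were called higher and 48 lower, and 104 did not pass. Over all genes tested 10.5% were called higher and 31.8% lower (42.3% in either direction), and the solute carriers' shares were 6.75% and 29.4%. The median log2 difference was -0.23 over the solute carriers and -0.22 over all genes. The splits under the same 3 scalings were 21 higher and 33 lower, 18 and 29, and 21 and 29, and 11 higher and 29 lower held under all of them, 6.75% and 17.8% of the solute carriers tested against 10.4% and 15.5% of all genes. These calls lean on each library more than those against the control did: 1 higher (Slc4a7) and 11 lower held under every scaling and with any 1 library left out. The comparison shares its LPS libraries with the first one, so an error in an LPS value enters both with opposite sign.

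With LPS plus Sal-B against control, 21 solute carriers were called higher and 102 lower. All genes tested gave 14.0% higher and 58.8% lower (72.8% in either direction), and the medians were -0.72 over the solute carriers and -0.63 over all genes. The scalings gave 39 higher and 59 lower, 22 and 99, and 41 and 51, and 20 higher and 46 lower held under all of them, 12.3% and 28.2% of the solute carriers tested against 13.7% and 28.8% of all genes.

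**Figure D1:**
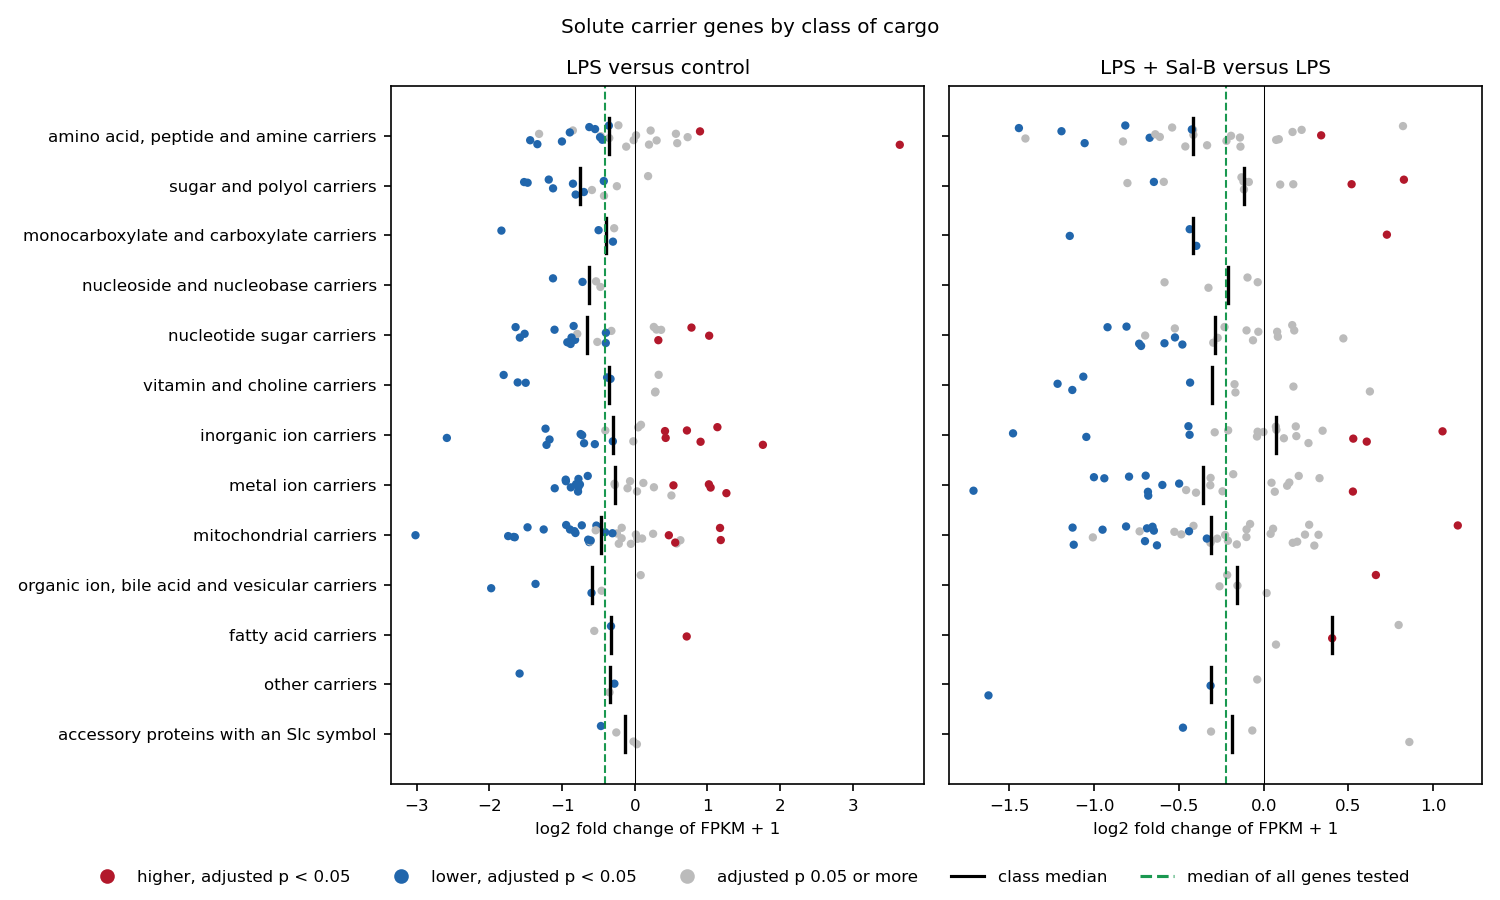
Each point is a tested solute carrier gene, placed by its log2 fold change of FPKM + 1 (x axis) within its class (rows), for LPS against control on the left and LPS plus Sal-B against LPS on the right; colour gives the call, black bars the class medians and the dashed line the median of all genes tested (-0.40 on the left, -0.22 on the right). Sugar and nucleotide sugar carriers have medians of -0.76 and -0.65 on the left, and the inorganic ion carriers hold both Slc12a4 (1.76) and Slc12a2 (-1.23). Points and colours include genes that entered the test only through the groups where they were high, Slc9a9 among them, and these support nothing.

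**Figure D2:**
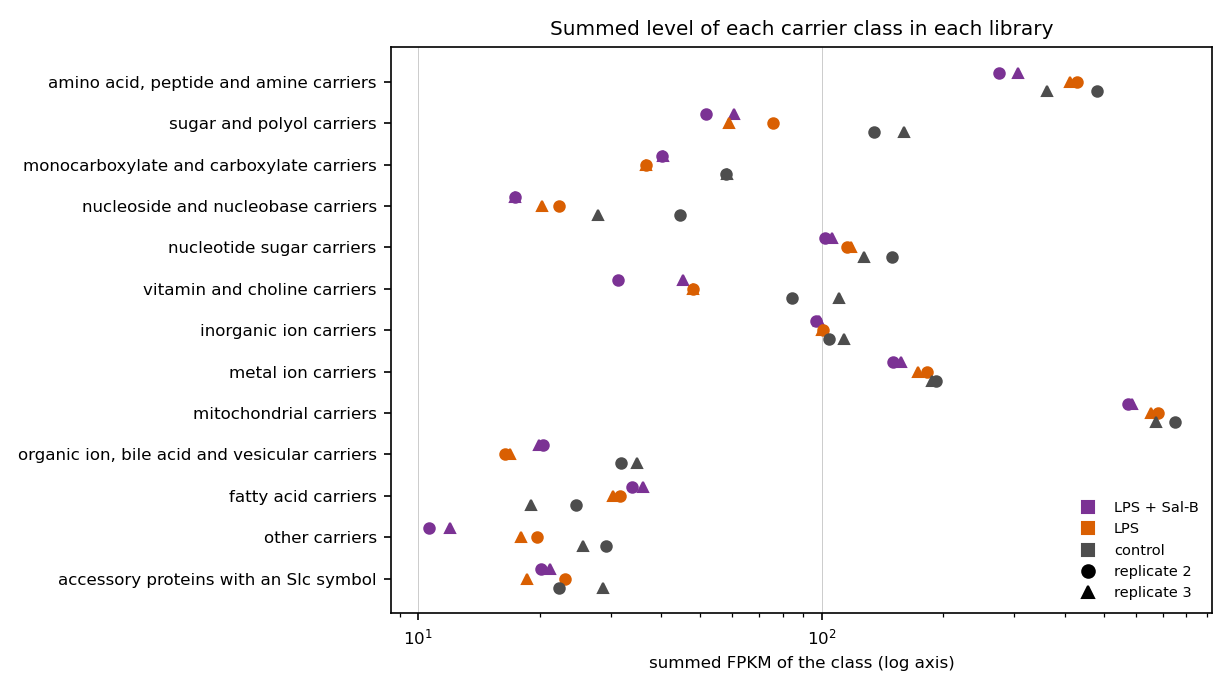
Summed FPKM of each carrier class (x axis, log scale) in each of the 6 libraries, with colour for the group and the marker shape for the replicate. Mitochondrial carriers had the highest sums, 581 ± 10.6 FPKM with LPS plus Sal-B, 667 ± 20.5 with LPS and 711 ± 53.6 in control cells (SD, n = 2 each), and the sugar carriers' sums in treated cells all lie below those of the control.

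Amino acid, peptide and amine carriers. Slc15a3 was the solute carrier gene with the largest rise under LPS, and the creatine carrier gene Slc6a8 also rose, while genes for carriers of neutral amino acids and osmolytes (Slc38a2, Slc6a9, Slc6a6) fell. Of 25 genes tested, 2 were called higher and 9 lower with LPS against control, and 1 higher and 6 lower with LPS plus Sal-B against LPS. The first split was 5 higher and 3 lower with equal medians, 2 and 11 with equal totals and 4 and 4 with quantile normalization. The class median was -0.35 in the first comparison, and 0.07 and 0.06 with equal medians and with quantile normalization. In the second it was -0.42, and between -0.21 and -0.18 under the 3 other scalings.

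Slc15a3 encodes a proton-coupled carrier of histidine and short peptides in the endolysosome. It lies on chr19:10839727-10859362 of GRCm38, plus strand. Its level was 58.7 and 59.2 FPKM with LPS plus Sal-B, 80.8 and 77.2 FPKM with LPS and 8.24 and 3.41 FPKM in control cells. All 4 treated libraries stood far above both control libraries. The log2 difference was 3.65 ± 0.33 for LPS against control (adjusted p = 0.000586, limma) and -0.42 ± 0.33 for LPS plus Sal-B against LPS (adjusted p = 0.351, limma). In the annotation 28.1% of its exon bases overlap Tmem132a on the opposite strand, and whether counting used strand is not stated. Its relative Slc15a4, another endolysosomal peptide and histidine carrier, read 3.69 and 3.83 FPKM with LPS plus Sal-B, 2.80 and 0.911 FPKM with LPS and 3.995 and 4.84 FPKM in control cells. The fall of Slc15a4 under LPS (-1.003 ± 0.32, adjusted p = 0.0377, limma) was lost with equal medians and with quantile normalization, and without LPS replicate 3, without either control library or without either LPS plus Sal-B library, with an adjusted p of up to 0.123.

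Slc6a8, the sodium-dependent creatine carrier, read 2.26 and 1.88 FPKM with LPS plus Sal-B, 5.46 and 5.28 FPKM with LPS and 2.79 and 2.09 FPKM in control cells. Its LPS libraries stood above all 4 others, whose ranges overlap. It rose with LPS by 0.90 ± 0.14 (adjusted p = 0.00312, limma) and fell with LPS plus Sal-B against LPS (-1.06 ± 0.14, adjusted p = 0.00431, limma). Slc6a6, which carries taurine, was lowest in LPS cells, with 36.5 and 35.96 FPKM with LPS plus Sal-B, 29.2 and 27.7 FPKM with LPS and 55.6 and 51.9 FPKM in control cells. Slc6a6 fell with LPS (-0.89 ± 0.08, adjusted p = 0.000636, limma) and was higher with LPS plus Sal-B than with LPS (0.34 ± 0.08, adjusted p = 0.0249), a call lost without any 1 of the 4 libraries compared (adjusted p up to 0.169). Slc6a9, the glycine carrier, read 0.784 and 0.762 FPKM with LPS plus Sal-B, 1.84 and 1.58 FPKM with LPS and 8.52 and 4.67 FPKM in control cells. Slc6a9 fell with LPS (-1.44 ± 0.25, adjusted p = 0.00437, limma). For Slc6a9 27.8% of exon bases overlap Ccdc24 on the opposite strand.

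Among the sodium-coupled neutral amino acid carriers, Slc38a2, known for its induction by amino acid shortage, read 14.3 and 15.0 FPKM with LPS plus Sal-B, 24.8 and 23.2 FPKM with LPS and 63.6 and 60.9 FPKM in control cells. The 3 groups did not overlap. Slc38a2 fell with LPS (-1.34 ± 0.09, adjusted p = 0.000299, limma) and again with LPS plus Sal-B against LPS (-0.67 ± 0.09, adjusted p = 0.00402, limma), and the second call was lost without LPS plus Sal-B replicate 2 (adjusted p = 0.0547). Slc38a7, a lysosomal exporter of glutamine and asparagine, read 6.07 and 6.27 FPKM with LPS plus Sal-B, 15.5 and 15.3 FPKM with LPS and 20.6 and 11.1 FPKM in control cells. LPS and control overlapped, and LPS plus Sal-B was below both; it fell with LPS plus Sal-B against LPS (-1.19 ± 0.26, adjusted p = 0.0178, limma), which was lost without any 1 of those 4 libraries (adjusted p up to 0.0971). Slc36a4, a high-affinity carrier of proline and tryptophan, read 3.27 and 1.78 FPKM with LPS plus Sal-B, against 8.94 and 7.82 FPKM with LPS, and fell (-1.44 ± 0.23, adjusted p = 0.00691, limma), a call lost without LPS replicate 2 (adjusted p = 0.0523).

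Several of the best known amino acid carriers did not pass against the control, and their control replicates were far apart. Slc7a5, the large neutral amino acid exchanger, read 14.2 and 14.9 FPKM with LPS plus Sal-B, 24.4 and 22 FPKM with LPS and 51.2 and 14.3 FPKM in control cells. Slc3a2, the heavy chain that carries Slc7a5 and its relatives to the cell surface, read 20.3 and 46.5 FPKM with LPS plus Sal-B, 84.7 and 81.7 FPKM with LPS and 82.4 and 37.8 FPKM in control cells. Slc7a1, the main uptake route for arginine and lysine, read 5.97 and 5.997 FPKM with LPS plus Sal-B, 9.27 and 9.03 FPKM with LPS and 14.8 and 6.67 FPKM in control cells. For all 3 the LPS values lay within or just above the span of the control pair. Slc1a4, which exchanges alanine, serine and cysteine, read 0.515 and 0.624 FPKM with LPS plus Sal-B, 0.984 and 1.35 FPKM with LPS and 9.22 and 1.84 FPKM in control cells. Atf4, a transcription factor known to drive many of these carrier genes under amino acid stress, read 63.2 and 65.9 FPKM with LPS plus Sal-B, 141 and 137 FPKM with LPS and 108 and 45.4 FPKM in control cells. Control replicate 2 was thus the higher of its pair for Atf4 and these 4 carriers, while Slc38a1, another neutral amino acid carrier, had 9.99 and 19.3 FPKM in control cells, against 21.5 and 21.3 FPKM with LPS. Leaving out control replicate 2 turned the LPS difference of Slc7a5 to 0.66 and that of Slc7a1 to 0.40. Without control replicate 3 they were -1.11 and -0.64 instead. With all libraries they were -0.23 ± 0.54 and -0.12 ± 0.33, and neither passed (adjusted p = 0.731 and 0.766, limma). Slc1a5, the glutamine carrier, read 14.8 and 15.6 FPKM with LPS plus Sal-B, 20.5 and 18.4 FPKM with LPS and 22.5 and 12.5 FPKM in control cells, and passed in no comparison.

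**Figure D3:**
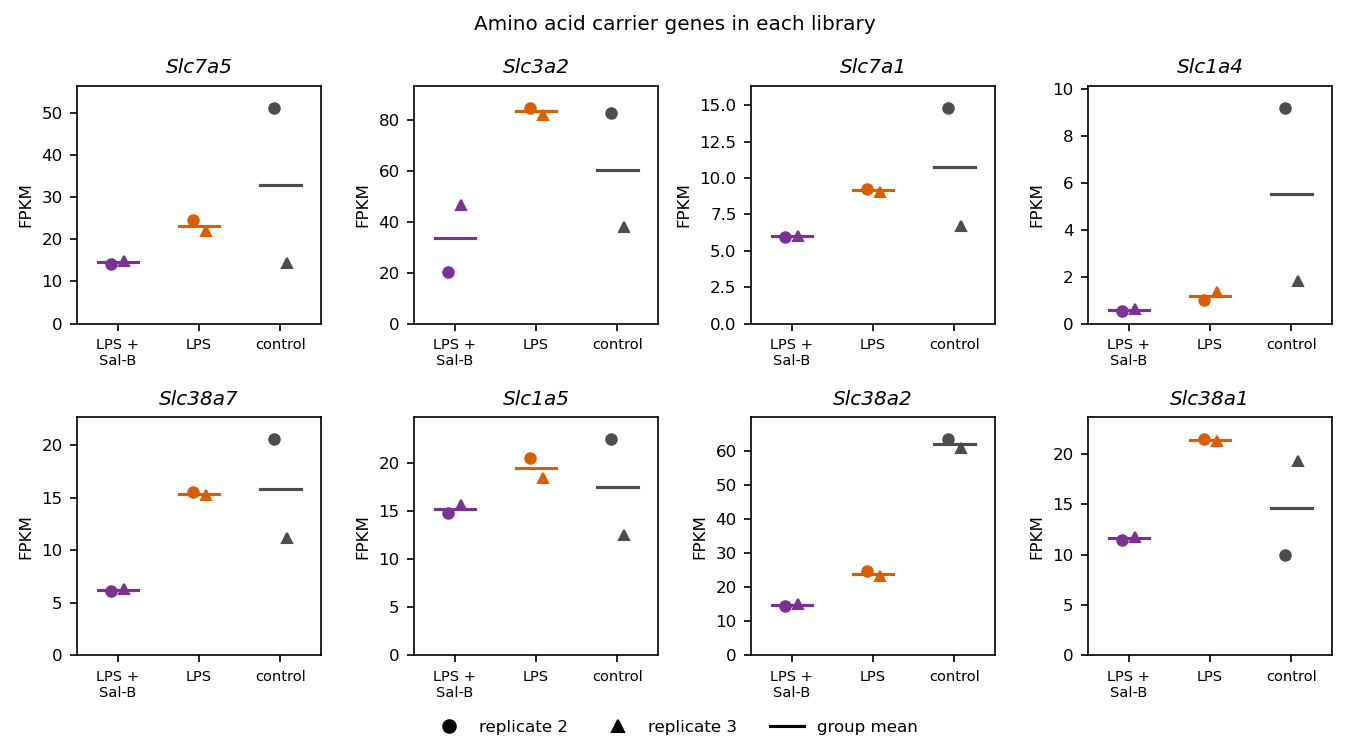
FPKM (y axis, from 0) of 8 amino acid carrier genes in the LPS plus Sal-B, LPS and control libraries; circles are replicate 2, triangles replicate 3 and bars group means. The control replicates of Slc7a5 (51.2 and 14.3 FPKM) and Slc1a4 (9.22 and 1.84 FPKM) lie far apart, while those of Slc38a2 (63.6 and 60.9 FPKM) lie together above the treated libraries.

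Sugar and polyol carriers. The sugar carriers of this set, which leaves out Slc2a1, were mostly lower in treated than in control cells, Slc37a4, Slc50a1 and Slc37a2 among them. Slc2a3 and Slc37a4 were higher with Sal-B added than with LPS alone. Their summed level was 56.1 ± 6.35 FPKM with LPS plus Sal-B, 67.4 ± 11.7 FPKM with LPS and 147 ± 17.4 FPKM in control cells (SD, n = 2 each). Of 12 genes tested, 0 were called higher and 8 lower with LPS against control by limma (0 and 9 at an unadjusted p under 0.05), and 2 higher and 1 lower with LPS plus Sal-B against LPS. With LPS the split was 0 and 7 under equal medians (limma; 0 and 7 unadjusted), 0 and 9 under equal totals (limma; 0 and 9 unadjusted) and 1 and 5 under quantile normalization. The class median with LPS was -0.76, and -0.46, -0.87 and -0.29 under equal medians, equal totals and quantile normalization, each below the all-gene median under the same scaling.

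Slc2a3, a high-affinity glucose carrier, read 5.94 and 6.66 FPKM with LPS plus Sal-B, 3.08 and 3.14 FPKM with LPS and 5.95 and 6.91 FPKM in control cells. The LPS pair was below the other 4 libraries, whose ranges overlap. Slc2a3 fell with LPS (-0.85 ± 0.11, adjusted p = 0.00189, limma) and was higher with LPS plus Sal-B than with LPS by 0.83 ± 0.11 (adjusted p = 0.00481, limma); this second call was lost without LPS plus Sal-B replicate 3 (adjusted p = 0.0529). Slc37a4, which brings glucose 6-phosphate into the endoplasmic reticulum for the last step of glucose release, read 3.52 and 4.05 FPKM with LPS plus Sal-B, 2.13 and 2.55 FPKM with LPS and 7.69 and 9.58 FPKM in control cells. Slc37a4 fell with LPS (-1.52 ± 0.14, adjusted p = 0.000643, limma) and was higher by 0.52 ± 0.14 with LPS plus Sal-B than with LPS (adjusted p = 0.0351, limma), a call lost without any 1 of those 4 libraries (adjusted p up to 0.193).

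Slc50a1, a sugar carrier of the Golgi and plasma membrane, read 13.5 and 20.4 FPKM with LPS plus Sal-B, 32.8 and 19.8 FPKM with LPS and 66.0 and 79.99 FPKM in control cells. Slc50a1 fell with LPS (-1.47 ± 0.29, adjusted p = 0.00752, limma), and the treated groups overlapped with each other. Slc37a2, a sugar phosphate exchanger abundant in macrophages, read 3.05 and 3.28 FPKM with LPS plus Sal-B, 3.66 and 3.35 FPKM with LPS and 7.42 and 10.4 FPKM in control cells. Slc37a2 fell with LPS (-1.12 ± 0.17, adjusted p = 0.00256, limma). Slc2a6, a lysosomal hexose carrier, had 15.3 and 12.4 FPKM with LPS and 22.4 and 12.2 FPKM in control cells, and did not pass (adjusted p = 0.465, limma). Slc5a3, which takes up myo-inositol with sodium, had 8.39 and 7.63 FPKM with LPS and 6.78 and 22.6 FPKM in control cells, and did not pass either (adjusted p = 0.331, limma).

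Monocarboxylate carriers. Of 4 genes tested, 0 were called higher and 3 lower with LPS by limma (0 and 4 at an unadjusted p under 0.05), with 1 lower under equal medians and under quantile normalization, and with Sal-B added Slc16a6 was higher than with LPS alone. Slc16a12, known as a creatine carrier, had 1 of the largest falls of all solute carrier genes, with 0.669 and 0.825 FPKM with LPS plus Sal-B, 2.79 and 2.92 FPKM with LPS and 11.9 and 13.7 FPKM in control cells. The 3 groups were well apart. Slc16a12 fell with LPS (-1.84 ± 0.11, adjusted p = 0.00029, limma) and with LPS plus Sal-B against LPS (-1.14 ± 0.11, adjusted p = 0.00235, limma). Slc16a1, the widespread proton-coupled lactate and pyruvate carrier, read 10.8 and 11.0 FPKM with LPS plus Sal-B, 14.8 and 15.4 FPKM with LPS and 24.3 and 19.4 FPKM in control cells. Slc16a1 fell with LPS (-0.50 ± 0.13, adjusted p = 0.0174, limma), a call lost with equal medians, with quantile normalization and without either LPS library (adjusted p up to 0.0897). Basigin (Bsg), the partner that brings Slc16a1 to the surface, read 217 and 221 FPKM with LPS plus Sal-B, 172 and 201 FPKM with LPS and 177 and 207 FPKM in control cells, and did not pass with LPS (adjusted p = 0.765, limma). Slc16a6, a ketone body carrier in liver, had 26.7 and 26.5 FPKM with LPS plus Sal-B, 15.97 and 15.4 FPKM with LPS and 17.8 and 20.9 FPKM in control cells. It was higher with LPS plus Sal-B than with LPS by 0.73 ± 0.10 (adjusted p = 0.00513, limma); this call was lost without either LPS plus Sal-B library (adjusted p up to 0.0575), and 21.5% of its exon bases overlap Amz2 on the opposite strand.

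Nucleoside and nucleobase carriers. Both genes called with LPS were equilibrative nucleoside carriers, and both were lower, while with equal medians or quantile normalization 1 was called. Slc29a3, the carrier of lysosomes and mitochondria, read 1.04 and 1.13 FPKM with LPS plus Sal-B, 1.32 and 0.973 FPKM with LPS and 3.39 and 3.96 FPKM in control cells. All treated libraries were below the control pair; it fell with LPS (-1.13 ± 0.13, adjusted p = 0.00112, limma). Slc29a1, the plasma membrane carrier of adenosine and other nucleosides, read 6.53 and 6.61 FPKM with LPS plus Sal-B, 7.55 and 6.64 FPKM with LPS and 14.5 and 10.4 FPKM in control cells. Slc29a1 fell with LPS (-0.72 ± 0.17, adjusted p = 0.0129, limma), lost with equal medians, with quantile normalization and without LPS replicate 3 (adjusted p = 0.0768). Slc43a3, a purine nucleobase carrier, had 11.8 and 11.4 FPKM with LPS and 23.4 and 11.5 FPKM in control cells, and did not pass (adjusted p = 0.218, limma). With LPS plus Sal-B against LPS none of the 4 was called by limma, and 0 were higher and 1 lower at an unadjusted p under 0.05.

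Nucleotide sugar carriers. The Slc35 family, which supplies the Golgi and endoplasmic reticulum with the building blocks of glycans, had calls in both directions with LPS, and which direction had more depended on the scaling. Of 20 genes tested, 3 were called higher and 11 lower with LPS against control, and 0 higher and 7 lower with LPS plus Sal-B against LPS by limma (1 higher and 8 lower at an unadjusted p under 0.05). With LPS the split was 6 and 8 under equal medians, 2 and 12 under equal totals and 6 and 6 under quantile normalization. The class median with LPS was -0.65, and -0.33, -0.77 and -0.14 under equal medians, equal totals and quantile normalization. Slc35c1, the Golgi carrier of GDP-fucose, read 5.90 and 6.26 FPKM with LPS plus Sal-B, 8.85 and 9.50 FPKM with LPS and 31.4 and 30.0 FPKM in control cells. The control pair stood over 3-fold above every treated library, and it fell with LPS (-1.64 ± 0.09, adjusted p = 0.000235, limma). Slc35b1, the carrier that exchanges ATP for ADP across the endoplasmic reticulum membrane, was lowest in control cells, with 42.4 and 41.6 FPKM with LPS plus Sal-B, 36.1 and 38.4 FPKM with LPS and 22.2 and 14.3 FPKM in control cells. It rose with LPS by 1.02 ± 0.20 (adjusted p = 0.00683, limma). Slc35a3, a UDP-N-acetylglucosamine carrier chosen after its values were seen, read 3.16 and 3.25 FPKM with LPS plus Sal-B, 4.88 and 4.84 FPKM with LPS and 10.7 and 9.01 FPKM in control cells. Slc35a3 fell with LPS (-0.88 ± 0.11, adjusted p = 0.00154, limma).

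Vitamin and choline carriers. With LPS 0 of 8 tested genes were called higher and 5 lower by limma (0 higher and 5 lower at an unadjusted p under 0.05), and 4 were called lower with LPS plus Sal-B against LPS. The LPS split turned to 3 higher and 2 lower with equal medians and with quantile normalization. Slc44a1, the widespread choline carrier, read 4.38 and 4.19 FPKM with LPS plus Sal-B, 9.59 and 10.5 FPKM with LPS and 33.5 and 42.1 FPKM in control cells. Its 3 groups were well apart; it fell with LPS (-1.80 ± 0.13, adjusted p = 0.00038, limma) and with LPS plus Sal-B against LPS (-1.06 ± 0.13, adjusted p = 0.00376, limma). Slc19a2, a thiamine carrier, read 1.01 and 1.04 FPKM with LPS plus Sal-B, 3.55 and 3.84 FPKM with LPS and 5.10 and 5.12 FPKM in control cells. Slc19a2 fell with LPS plus Sal-B against LPS (-1.21 ± 0.10, adjusted p = 0.0018, limma); its fall with LPS (-0.38 ± 0.10, adjusted p = 0.0171) turned to 0.11 with quantile normalization, and was lost with equal medians and without LPS replicate 2 or either LPS plus Sal-B library (adjusted p up to 0.0837). Slc23a2, which takes up ascorbate with sodium, read 4.95 and 5.19 FPKM with LPS plus Sal-B, 12.2 and 12.3 FPKM with LPS and 11.3 and 8.70 FPKM in control cells. Slc23a2 fell with LPS plus Sal-B against LPS (-1.13 ± 0.14, adjusted p = 0.00343, limma) and did not pass with LPS (adjusted p = 0.122).

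Inorganic ion carriers. Genes of this class were called in both directions: the potassium-chloride cotransporter gene Slc12a4 and the phosphate carrier gene Slc20a1 rose with LPS, while the sodium-potassium-chloride cotransporter gene Slc12a2 fell. Of 19 genes tested, 6 were called higher and 9 lower with LPS against control, and 3 higher and 4 lower with LPS plus Sal-B against LPS. The first split was 7 and 6 with equal medians, 4 and 9 with equal totals and 8 and 4 with quantile normalization, and the second 6 and 3, 5 and 2, and 6 and 2. The class median with LPS was -0.30, and 0.09 and 0.11 with equal medians and quantile normalization.

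Within the Slc12 family, Slc12a4 and Slc12a7 encode potassium-chloride cotransporters, which let ions out of the cell and reduce its volume. Slc12a4 read 9.48 and 9.66 FPKM with LPS plus Sal-B, 8.92 and 9.19 FPKM with LPS and 2.49 and 1.52 FPKM in control cells. Slc12a7 read 2.95 and 3.03 FPKM with LPS plus Sal-B, 2.35 and 2.65 FPKM with LPS and 0.812 and 0.927 FPKM in control cells. The treated libraries of Slc12a4 and Slc12a7 all stood above both controls. For Slc12a4 the log2 difference was 1.76 ± 0.17 for LPS against control (adjusted p = 0.000655, limma). Slc12a7 was under 1 FPKM in both control libraries and entered the test through the treated libraries, so its values are given with no test. Slc12a2, which brings sodium, potassium and chloride in, read 0.522 and 0.572 FPKM with LPS plus Sal-B, 1.16 and 1.05 FPKM with LPS and 4.30 and 3.59 FPKM in control cells. Slc12a2 fell with LPS (-1.23 ± 0.11, adjusted p = 0.000617, limma).

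Slc20a1, a sodium-phosphate symporter on chr2:129198764-129211616 of GRCm38, read 9.63 and 9.93 FPKM with LPS plus Sal-B, 21.3 and 21.2 FPKM with LPS and 10.2 and 8.11 FPKM in control cells. The LPS pair stood about 2-fold above the other 4 libraries, which overlap. It rose with LPS by 1.14 ± 0.12 (adjusted p = 0.000962, limma) and fell with LPS plus Sal-B against LPS (-1.05 ± 0.12, adjusted p = 0.00327, limma); with LPS plus Sal-B against control the difference was 0.09 ± 0.12 (adjusted p = 0.528). Slc4a7, an electroneutral sodium-bicarbonate carrier that raises the pH of the cytosol, read 15.5 and 16.2 FPKM with LPS plus Sal-B, 7.37 and 6.86 FPKM with LPS and 5.81 and 7.58 FPKM in control cells. LPS overlapped with control and LPS plus Sal-B stood above both; it was higher by 1.05 ± 0.13 with LPS plus Sal-B than with LPS (adjusted p = 0.00398, limma) and by 1.14 ± 0.13 than in control cells (adjusted p = 0.000778, limma).

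Among the sodium-proton exchangers of the Slc9 family, Slc9a9 of late endosomes was lower in treated cells and Slc9a8 of the Golgi was highest with LPS plus Sal-B. Slc9a9 read 0.477 and 0.409 FPKM with LPS plus Sal-B, 0.400 and 0.570 FPKM with LPS and 6.70 and 9.30 FPKM in control cells. All treated libraries of Slc9a9 were under 1 FPKM and below both controls, and it entered the test through the control pair alone. Slc9a8 read 4.74 and 5.03 FPKM with LPS plus Sal-B, 2.79 and 3.39 FPKM with LPS and 2.23 and 1.89 FPKM in control cells, and was higher by 0.94 ± 0.12 with LPS plus Sal-B than in control cells (adjusted p = 0.00112, limma). With LPS against control its difference was 0.42, and 0.28 with equal totals, and no call held under every scaling. Slc9a4, an exchanger best known from the stomach, read 0.539 and 0.652 FPKM with LPS plus Sal-B, 3.70 and 3.20 FPKM with LPS and 7.56 and 5.47 FPKM in control cells. Slc9a4 fell with LPS plus Sal-B against LPS (-1.48 ± 0.16, adjusted p = 0.00286, limma), and all 3 groups were apart. Slc8b1, the mitochondrial sodium-calcium exchanger, read 14.4 and 15.0 FPKM with LPS plus Sal-B, 13.0 and 13.9 FPKM with LPS and 7.39 and 8.19 FPKM in control cells. Slc8b1 rose with LPS by 0.72 ± 0.10 (adjusted p = 0.00187, limma).

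**Figure D4:**
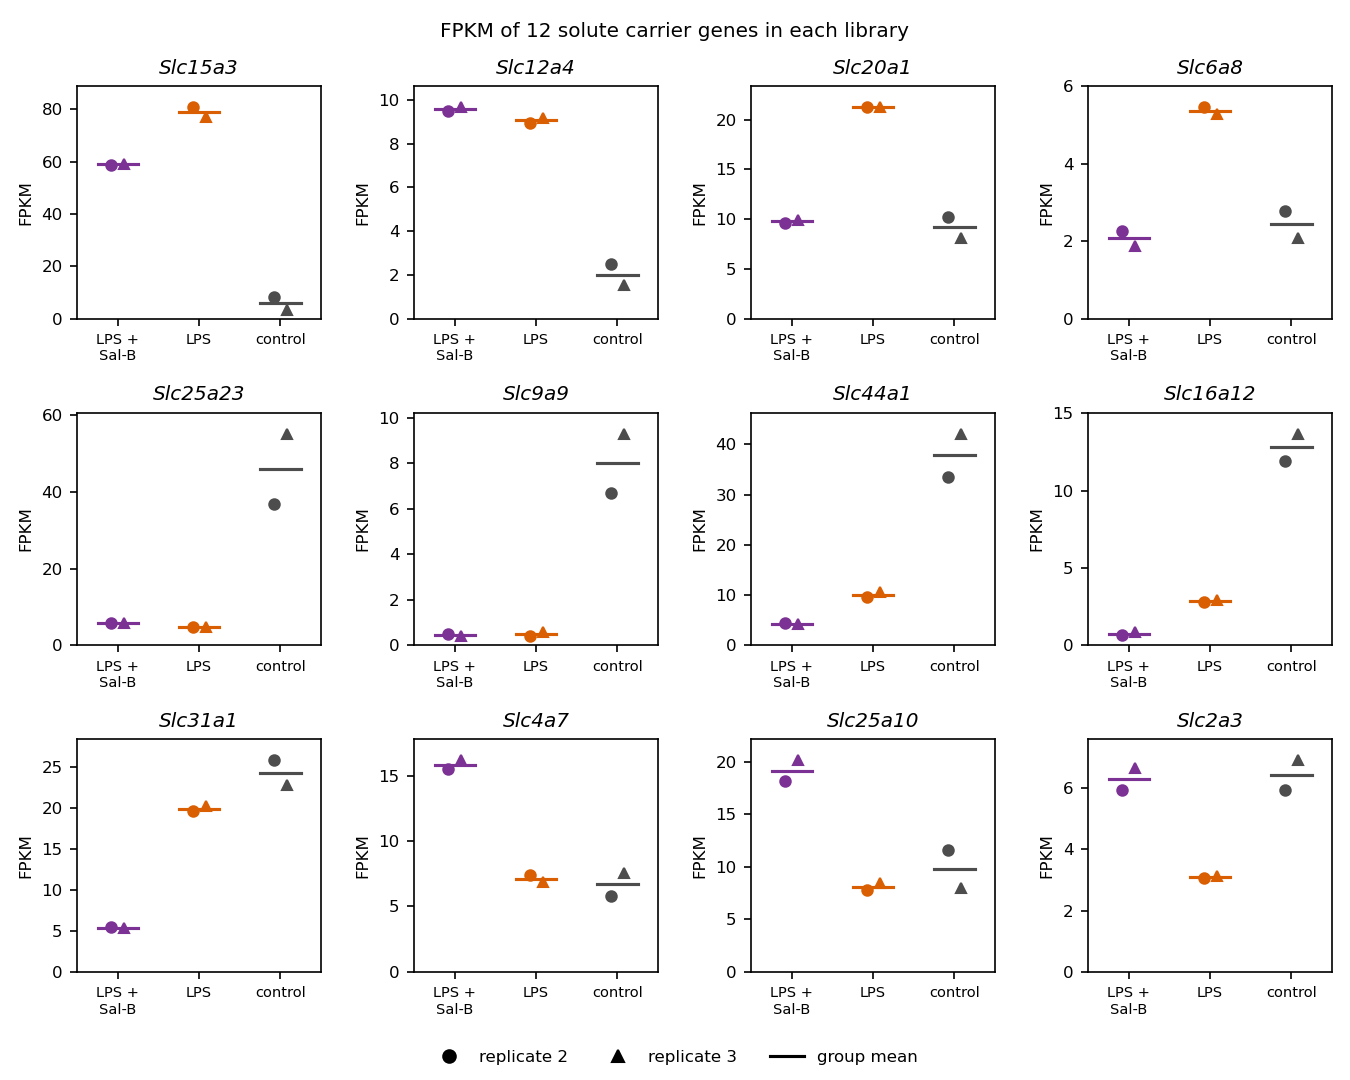
FPKM (y axis, from 0) of 12 solute carrier genes in the LPS plus Sal-B, LPS and control libraries; circles are replicate 2, triangles replicate 3 and bars group means. Slc15a3 and Slc12a4 are high in all treated libraries, Slc20a1 and Slc6a8 in LPS libraries alone, Slc25a23, Slc9a9, Slc44a1 and Slc16a12 are highest in control cells, Slc31a1 is lowest and Slc4a7 and Slc25a10 are highest with LPS plus Sal-B, and Slc2a3 is lowest with LPS.

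Promoter sequence is shown for 4 genes whose calls held under every scaling, to put the letters before their starts beside their values; the choice was made after the values were seen. Of the solute carrier genes 130 had at least 1 promoter in the RefSeq table (GRCm38.p6), with 184 windows of 250 bases before a start. Capitals mark CACGTG, the E-box, or a match to a loose NF-kB-type pattern (GGGA and CC with any 4 bases between), searched on both strands, so that a match may read as its reverse complement.
Slc20a1, chr2:129198523-129198772, plus strand: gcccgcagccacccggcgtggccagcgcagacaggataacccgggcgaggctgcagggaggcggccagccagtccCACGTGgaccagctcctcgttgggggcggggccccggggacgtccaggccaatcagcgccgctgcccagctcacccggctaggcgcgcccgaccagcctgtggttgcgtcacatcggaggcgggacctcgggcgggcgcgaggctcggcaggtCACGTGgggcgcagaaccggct
Slc12a4, chr8:105966116-105966365, minus strand: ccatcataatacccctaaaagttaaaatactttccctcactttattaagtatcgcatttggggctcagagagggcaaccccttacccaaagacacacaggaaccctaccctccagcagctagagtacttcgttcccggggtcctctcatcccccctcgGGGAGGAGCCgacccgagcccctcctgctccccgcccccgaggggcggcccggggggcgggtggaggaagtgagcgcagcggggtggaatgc
Slc16a12, chr19:34747329-34747578, minus strand: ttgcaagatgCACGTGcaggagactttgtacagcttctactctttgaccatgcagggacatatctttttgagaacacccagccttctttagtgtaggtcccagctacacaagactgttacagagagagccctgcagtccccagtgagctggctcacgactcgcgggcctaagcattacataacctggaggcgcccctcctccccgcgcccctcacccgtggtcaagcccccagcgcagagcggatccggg
Slc31a1, chr4:62360451-62360700, plus strand: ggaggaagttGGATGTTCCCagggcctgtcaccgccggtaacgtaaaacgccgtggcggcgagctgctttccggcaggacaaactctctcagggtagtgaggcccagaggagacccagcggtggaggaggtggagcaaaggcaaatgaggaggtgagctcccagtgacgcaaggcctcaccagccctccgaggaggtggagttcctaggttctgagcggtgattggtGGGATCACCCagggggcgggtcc
The Slc20a1 window shown holds CACGTG at 175 to 170 and again at 22 to 17 bases before the start, and the Slc16a12 window holds it once, 240 to 235 bases before. Windows without a match were not shown, and Slc20a1 has another window that holds none of the patterns searched. The Slc12a4 window holds GGGAGGAGCC at 92 to 83 bases before the start, and the Slc31a1 window holds GGATGTTCCC at 240 to 231 and GGGATCACCC at 23 to 14 bases before. CACGTG was in 12.5% of solute carrier windows, 8.69% of the windows of all genes tested and 6.02% of all promoters in the table. The NF-kB-type pattern was in 25%, 22.3% and 17.6% of the same 3 sets, and TGATGNAA, an ATF4-type pattern, in 2.17%, 1.96% and 3.45%. Among windows of genes called with LPS, CACGTG was in 5 of 23 for those called higher, 12 of 90 for those called lower and 6 of 64 for those not called. For LPS plus Sal-B against LPS it was in 1 of 10, 6 of 47 and 16 of 120 windows of the same 3 kinds. A match is a string of letters and not a shown binding site.

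Metal ion carriers. The copper importer gene Slc31a1 had the largest fall of all solute carriers with Sal-B added, and zinc carrier genes were called in both directions with LPS. Of 22 genes tested, 4 were called higher and 10 lower with LPS against control, and 1 higher and 9 lower with LPS plus Sal-B against LPS. The 22 include a gene that passed the filter through the LPS pair alone, where it was high, and supports nothing. The LPS split turned to 8 higher and 5 lower with equal medians and 10 and 3 with quantile normalization, and was 3 and 12 with equal totals. The class median was -0.28 with LPS, and 0.14 and 0.01 with equal medians and quantile normalization. With LPS plus Sal-B against LPS it was -0.36, and between -0.16 and -0.14 under the other scalings.

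Slc31a1, the high-affinity copper importer, read 5.43 and 5.34 FPKM with LPS plus Sal-B, 19.6 and 20.2 FPKM with LPS and 25.8 and 22.8 FPKM in control cells. Both LPS plus Sal-B libraries lay far below the 4 others. Slc31a1 fell with LPS plus Sal-B against LPS (-1.71 ± 0.10, adjusted p = 0.00118, limma) and did not pass with LPS against control (-0.27 ± 0.10, adjusted p = 0.0527). Slc31a2, its relative of endosomes and lysosomes, read 12.9 and 12.1 FPKM with LPS plus Sal-B, 17.9 and 17.2 FPKM with LPS and 9.29 and 4.82 FPKM in control cells. It rose with LPS by 1.26 ± 0.26 (adjusted p = 0.00878, limma), a call lost without LPS replicate 2 (adjusted p = 0.0515).

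Among zinc carriers, Slc39a7, which releases zinc from the endoplasmic reticulum, read 21.7 and 22.2 FPKM with LPS plus Sal-B, 19.9 and 17.9 FPKM with LPS and 8.41 and 8.90 FPKM in control cells. Slc39a7 rose with LPS by 1.04 ± 0.10 (adjusted p = 0.000595, limma). Of its exon bases 80.65% are shared with the gene model Gm20427 on the same strand. Slc39a1, a zinc importer of the plasma membrane, read 57.0 and 61.5 FPKM with LPS plus Sal-B, 42.5 and 39.2 FPKM with LPS and 31.2 and 24.95 FPKM in control cells. Its 3 groups did not overlap, and it was higher by 1.06 ± 0.13 with LPS plus Sal-B than in control cells (adjusted p = 0.000875, limma). Slc39a6, another zinc importer, chosen after its values were seen, was lowest with Sal-B added, with 4.58 and 4.38 FPKM with LPS plus Sal-B, 9.77 and 9.25 FPKM with LPS and 21.1 and 15.9 FPKM in control cells. Slc39a6 fell with LPS (-0.88 ± 0.15, adjusted p = 0.00397, limma). Slc39a14, a zinc and iron importer induced by inflammation in liver, had 2.54 and 3.88 FPKM with LPS plus Sal-B, 3.96 and 3.87 FPKM with LPS and 2.95 and 2.04 FPKM in control cells, and did not pass with LPS (0.50 ± 0.20, adjusted p = 0.0738, limma).

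The zinc exporter Slc30a1, a known target of the metal sensor Mtf1, read 1.197 and 1.14 FPKM with LPS plus Sal-B, 2.45 and 2.58 FPKM with LPS and 2.37 and 2.11 FPKM in control cells. Slc30a1 fell with LPS plus Sal-B against LPS (-0.70 ± 0.10, adjusted p = 0.00535, limma), lost without either LPS plus Sal-B library (adjusted p up to 0.0586). Slc30a7, which loads zinc into the Golgi and was chosen after its values were seen, read 4.44 and 4.80 FPKM with LPS plus Sal-B, 10.1 and 10.3 FPKM with LPS and 11.4 and 14.0 FPKM in control cells. Slc30a7 fell with LPS plus Sal-B against LPS (-1.001 ± 0.12, adjusted p = 0.0036, limma). The metallothionein genes Mt1 and Mt2, whose proteins bind zinc and copper, were far higher in treated cells: Mt2 read 2795 and 2822 FPKM with LPS plus Sal-B, 2501 and 2509 FPKM with LPS and 387 and 400.1 FPKM in control cells. Mtf1 itself read 4.003 and 4.55 FPKM with LPS plus Sal-B, 4.56 and 4.55 FPKM with LPS and 2.67 and 2.38 FPKM in control cells. Mtf1 rose with LPS by 0.66 ± 0.11 (adjusted p = 0.00369, limma).

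Mitochondrial carriers. The Slc25 family exchanges nucleotides, phosphate and intermediates across the inner mitochondrial membrane. Of 34 genes tested, 4 were called higher and 17 lower with LPS against control, and 1 higher and 11 lower with LPS plus Sal-B against LPS. The class median with LPS was -0.47 and, with equal medians, equal totals and quantile normalization, 0.00, -0.64 and -0.12. With LPS 9 genes were called in each direction under equal medians, 2 higher and 21 lower under equal totals and 6 and 7 under quantile normalization. In the comparison of LPS plus Sal-B with LPS the split was 4 and 6 under each of the 3 scalings.

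The 3 calcium-regulated ATP-magnesium/phosphate carriers, which set the adenine nucleotide content of the matrix, differed in their order. Slc25a23 on chr17:57043711-57059863 of GRCm38, minus strand, read 5.74 and 5.74 FPKM with LPS plus Sal-B, 4.75 and 4.63 FPKM with LPS and 36.8 and 55.2 FPKM in control cells. Slc25a24 read 13.2 and 13.8 FPKM with LPS plus Sal-B, 32.3 and 29.1 FPKM with LPS and 38.2 and 31.8 FPKM in control cells. Slc25a25 read 4.18 and 4.54 FPKM with LPS plus Sal-B, 4.62 and 4.87 FPKM with LPS and 1.63 and 1.43 FPKM in control cells. Slc25a23 was thus low in all treated cells, Slc25a24 low with Sal-B added, and Slc25a25 high in all treated cells. With LPS Slc25a23 fell (-3.02 ± 0.19, adjusted p = 0.000294, limma), the largest fall among the solute carrier genes tested, and Slc25a25 rose by 1.18 ± 0.10 (adjusted p = 0.000549, limma). Slc25a24 did not pass with LPS (adjusted p = 0.228) and fell with LPS plus Sal-B against LPS (-1.13 ± 0.12, adjusted p = 0.00261, limma).

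The carriers of ATP, ADP and phosphate had the highest levels of the family. Slc25a5, an ADP/ATP exchanger and the solute carrier gene with the highest FPKM in every library, read 257 and 255 FPKM with LPS plus Sal-B, 273 and 276 FPKM with LPS and 216 and 161 FPKM in control cells. Its rise with LPS (0.56 ± 0.15, adjusted p = 0.0202, limma) was lost with equal totals, with quantile normalization and without either LPS library (adjusted p up to 0.0975). Slc25a4, the ADP/ATP exchanger best known from muscle and heart, read 71.7 and 73.7 FPKM with LPS plus Sal-B, 66.4 and 60.2 FPKM with LPS and 67.9 and 57.6 FPKM in control cells, and passed in no comparison. Slc25a3, the phosphate carrier, read 26.5 and 27.5 FPKM with LPS plus Sal-B, 47.7 and 41.5 FPKM with LPS and 42.4 and 44.3 FPKM in control cells. Slc25a3 fell with LPS plus Sal-B against LPS (-0.70 ± 0.10, adjusted p = 0.00514, limma), lost without LPS plus Sal-B replicate 2 (adjusted p = 0.059).

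Among carriers of tricarboxylic acid cycle intermediates, Slc25a10, the dicarboxylate carrier that trades malate and succinate for phosphate, read 18.2 and 20.1 FPKM with LPS plus Sal-B, 7.75 and 8.46 FPKM with LPS and 11.6 and 7.93 FPKM in control cells. LPS and control overlapped and LPS plus Sal-B stood above both. It was higher by 1.14 ± 0.18 with LPS plus Sal-B than with LPS (adjusted p = 0.00649, limma), a call lost without LPS replicate 2 or without LPS plus Sal-B replicate 3 (adjusted p up to 0.055), and by 0.92 ± 0.18 than in control cells (adjusted p = 0.00511, limma). Slc25a1, the citrate carrier that feeds lipid synthesis and inflammatory mediators in macrophages, read 39.8 and 42.7 FPKM with LPS plus Sal-B, 33.4 and 32.1 FPKM with LPS and 26.5 and 20.6 FPKM in control cells. Its 3 groups did not overlap; it was higher by 0.79 ± 0.13 with LPS plus Sal-B than in control cells (adjusted p = 0.00314, limma), and its rise with LPS (0.47 ± 0.13, adjusted p = 0.0271) was lost with equal totals and without any 1 of the 4 treated libraries (adjusted p up to 0.122). Slc25a11, which trades oxoglutarate for malate, had 14.2 and 14.7 FPKM with LPS plus Sal-B, 20.7 and 18.6 FPKM with LPS and 19.9 and 13.3 FPKM in control cells, and passed in no comparison.

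Among the carriers of nucleotides and other cargo, Slc25a36, a pyrimidine nucleotide carrier, read 1.66 and 2.23 FPKM with LPS plus Sal-B, 3.02 and 3.44 FPKM with LPS and 10.6 and 14.2 FPKM in control cells. Slc25a36 fell with LPS (-1.65 ± 0.18, adjusted p = 0.000914, limma). Slc25a40, close kin of the mitochondrial glutathione carrier Slc25a39, read 0.753 and 0.659 FPKM with LPS plus Sal-B, 0.937 and 0.678 FPKM with LPS and 5.06 and 4.40 FPKM in control cells. Its treated libraries were all under 1 FPKM, and it entered the test through the control pair alone. Slc25a37, mitoferrin 1, which brings iron to the matrix, read 14.7 and 9.50 FPKM with LPS plus Sal-B, 25.1 and 22.6 FPKM with LPS and 30.6 and 40.1 FPKM in control cells. Its groups did not overlap, and it fell with LPS plus Sal-B against control (-1.49 ± 0.23, adjusted p = 0.00208, limma). Slc25a46, an outer membrane protein of mitochondrial shape, read 3.84 and 3.83 FPKM with LPS plus Sal-B, 9.76 and 9.26 FPKM with LPS and 14.6 and 15.4 FPKM in control cells. Slc25a46 fell with LPS plus Sal-B against LPS (-1.12 ± 0.09, adjusted p = 0.00189, limma). Slc25a17, the family's peroxisomal member, chosen after its values were seen, read 10.5 and 11.0 FPKM with LPS plus Sal-B, 19.2 and 16.8 FPKM with LPS and 44.3 and 44.2 FPKM in control cells. Slc25a17 fell with LPS (-1.25 ± 0.10, adjusted p = 0.000422, limma). For Slc25a35, a member of uncertain cargo, the values were 0.142 and 0.141 FPKM with LPS plus Sal-B, 0.181 and 0.022 FPKM with LPS and 2.03 and 3.46 FPKM in control cells, and 31.3% of its exon bases overlap Rangrf on the opposite strand.

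**Figure D5:**
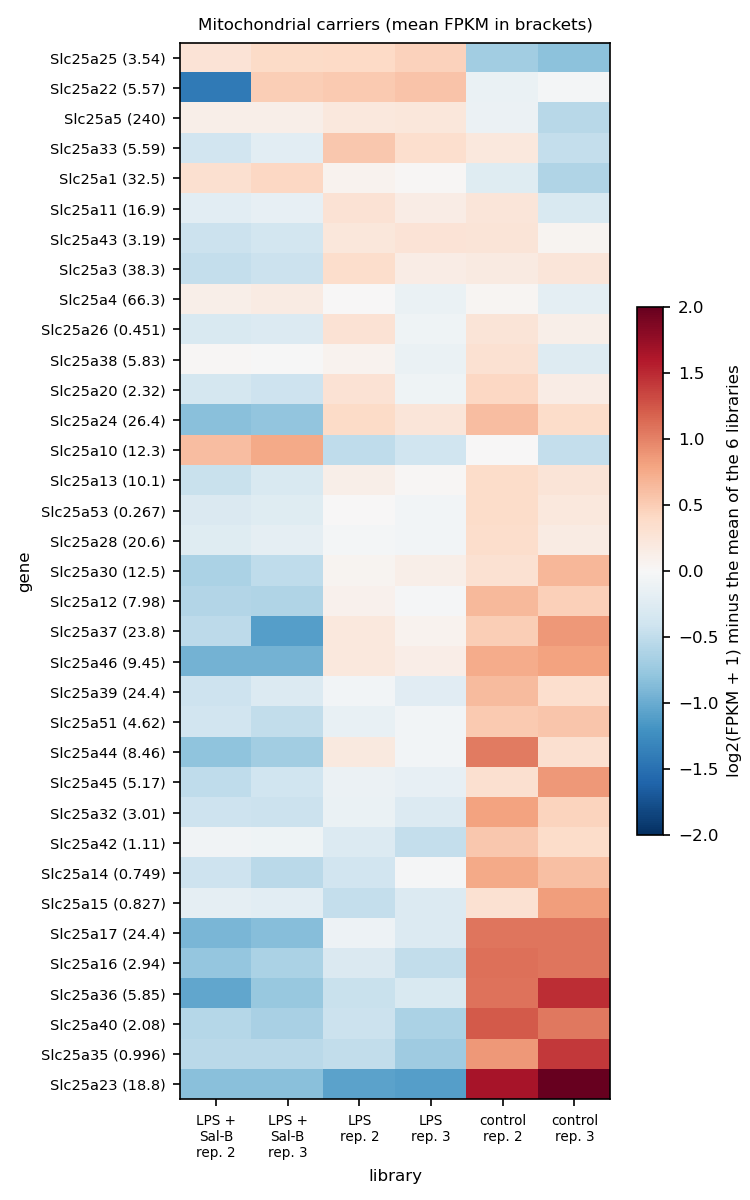
Colour gives log2(FPKM + 1) of 35 of the 36 mitochondrial carrier genes (rows, with the mean FPKM over the libraries in brackets) minus that gene's mean over the 6 libraries (columns), with rows ordered by the difference between LPS and control. Slc25a25 (1.18) is at the top, Slc25a23 (-3.02), whose value in control replicate 3 lies beyond the end of the colour scale, is at the bottom, and Slc25a10 stands out as high in both LPS plus Sal-B libraries.

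Other cargo. Among the organic ion carriers Slc17a5, sialin, which exports sialic acid from the lysosome, read 8.45 and 9.06 FPKM with LPS plus Sal-B, 4.67 and 5.69 FPKM with LPS and 14.9 and 14.9 FPKM in control cells. Slc17a5 fell with LPS (-1.37 ± 0.11, adjusted p = 0.000485, limma) and was higher by 0.66 ± 0.11 with LPS plus Sal-B than with LPS (adjusted p = 0.00872, limma), a call lost without LPS replicate 2 or without either LPS plus Sal-B library (adjusted p up to 0.0781). Slc10a3, an orphan member of the bile acid carrier family, read 0.688 and 0.627 FPKM with LPS plus Sal-B, 0.702 and 0.999 FPKM with LPS and 6.65 and 5.88 FPKM in control cells. Slc10a3 entered the test through the control pair alone. Both genes were lower in all treated libraries than in either control. Slc27a1, a long-chain fatty acid carrier and acyl-CoA synthetase, read 29.5 and 30.6 FPKM with LPS plus Sal-B, 29.0 and 28.1 FPKM with LPS and 21.5 and 13.4 FPKM in control cells, and its rise with LPS (0.71 ± 0.21, adjusted p = 0.0283, limma) was lost with equal totals and without any 1 of the 4 treated libraries (adjusted p up to 0.116). Slc33a1, which brings acetyl-CoA into the endoplasmic reticulum, read 0.875 and 2.23 FPKM with LPS plus Sal-B, 7.52 and 5.72 FPKM with LPS and 9.51 and 7.83 FPKM in control cells. Slc33a1 fell with LPS plus Sal-B against LPS (-1.62 ± 0.28, adjusted p = 0.00893, limma), lost without LPS replicate 2 (adjusted p = 0.0619), and 32.0% of its exon bases overlap Gm26850 on the opposite strand. Slc14a1, a urea carrier, read 0.836 and 0.966 FPKM with LPS plus Sal-B, 0.872 and 1.03 FPKM with LPS and 5.198 and 4.52 FPKM in control cells. Of its treated libraries 1 reached 1 FPKM, so it too entered the test through the control pair. Slc48a1, the heme carrier of the phagolysosome, read 8.90 and 8.77 FPKM with LPS plus Sal-B, 11.3 and 11.2 FPKM with LPS and 14.5 and 13.2 FPKM in control cells; its fall with LPS (-0.28 ± 0.09, adjusted p = 0.0393, limma) turned to 0.13 with equal medians and 0.07 with quantile normalization, and was lost without any 1 of the treated libraries (adjusted p up to 0.145).

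Of 24 related carriers that bear other names, such as the major facilitator (Mfsd) genes and the mitochondrial pyruvate and calcium carriers, 3 were called higher and 11 lower with LPS against control, and 2 higher and 7 lower with LPS plus Sal-B against LPS. These shares, 12.5% and 45.8% in the first comparison and 8.33% and 29.2% in the second, stand beside 14.2% and 48.9%, and 10.5% and 31.8%, of all genes tested. Slco4a1, an organic anion carrier, read 38.9 and 40.6 FPKM with LPS plus Sal-B, 60.0 and 56.1 FPKM with LPS and 94.4 and 100.2 FPKM in control cells. Flvcr1, a choline and heme carrier, read 1.49 and 1.67 FPKM with LPS plus Sal-B, 4.15 and 4.50 FPKM with LPS and 8.27 and 5.74 FPKM in control cells. In both, the groups did not overlap and the treated libraries were lower. Of 12 partners and regulators of carriers, 3 were called higher (Mt1, Mt2 and Mtf1) and 3 lower with LPS, Vdac1 and Oxsr1 among them; with equal medians the differences of Vdac1 and Oxsr1 were -0.12 and 0.11 and did not pass (adjusted p = 0.217 and 0.299, limma).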

How the data were processed

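RNA of RAW264.7 cells was sequenced as 6 stranded libraries (2 LPS plus Sal-B, 2 LPS, 2 control), per the labels' protocols, which name both poly(A) selection and ribosomal RNA removal. Per the submitters' processing notes, cutadapt, HISAT2 2.0.5, StringTie and the build GRCm38 were used, and the authors deposited 1 table of FPKM per gene. Per the file headers the FPKM are per gene and library. Every gene in the table has a group mean of at least 0.5001 FPKM in 1 group or more, so genes below that are not analysed here. Whole reads could not be recovered from the FPKM steps (25.6% to 44.6% of low values within 0.05 of a multiple), so no count model was run. The other statistics were computed here with limma 3.58.1 in R 4.3.3: log2(FPKM + 1), all 6 libraries in 1 fit with group as the only term, empirical Bayes with a trend, two-sided, Benjamini-Hochberg over 10014 genes. With 2 libraries against 2 an exact permutation test cannot go below p = 0.333, so none was used. Alternatives were other pseudocounts (0.1 and 5), filters, scalings (equal median of expressed genes, equal total, quantile), a replicate block, the 2 groups compared alone, no trend, a minimum fold of 1.5 and each library left out; where a group then has 1 library, it is assumed to vary like the others. The averaging of treated pairs and the filter over 4 libraries were chosen after seeing the data. Genes named in the text are, per comparison, the 10 largest rises and 10 largest falls among called genes without overlap and with a group mean of at least 2 FPKM, up to 3 with the highest mean per class, and a panel of known carriers; others are marked where they appear, and a few genes are not reported here. The members, classes and lists were chosen with earlier results of these data known. Overlaps of exons came from GENCODE on GRCm38.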

Additional observations from a re-analysis of the deposited data

How the results depend on the processing

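The counts of solute carrier genes called higher and lower moved with the setting. For LPS against control (20 and 81) they were 41 and 45 with equal medians, 13 and 94 with equal totals, 40 and 36 with quantile normalization, 5 and 27 at a minimum fold of 1.5, 4 and 25 with treated pairs averaged, and 46 lower with a 5 FPKM filter; leaving out 1 library gave 11 to 33 higher and 54 to 92 lower. In the comparison of LPS plus Sal-B with LPS alone (11 and 48) they were 21 and 33, 18 and 29, and 21 and 29 under the 3 scalings, 21 and 74 with the 2 groups alone, 0 and 5 at a minimum fold of 1.5 (3 and 15 at an unadjusted p under 0.05, limma), and 0 and 0 with treated pairs averaged (4 and 22 unadjusted); leaving out 1 library gave 1 to 20 higher and 14 to 74 lower. For LPS plus Sal-B against control (21 and 102) they were 39 and 59 with equal medians, 41 and 51 with quantile normalization, 10 and 53 at a minimum fold of 1.5, 9 and 59 with treated pairs averaged, and 58 lower with a 5 FPKM filter; leaving out 1 library gave 15 to 25 and 85 to 109. The cause was not tested.

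Same-numbered libraries did not deviate together (correlations of deviations 0.01, 0.03 and 0.00). That does not show that they were prepared apart. With the replicate block the calls were 17 and 75, 9 and 46, and 21 and 103.

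Signs that turned, with LPS against control: Slc48a1 to 0.13 (equal medians) and 0.0655 (quantile), Slc6a12 to 0.073 (equal medians), Slc19a2 to 0.11 and Slc27a4 to 0.16 (quantile), and, between leaving out control replicate 3 and control replicate 2, Slc38a7 lay between -0.40 and 0.43, Slc7a5 between -1.11 and 0.66 and Slc7a1 between -0.64 and 0.40. With LPS plus Sal-B against control: Slc2a3 to 0.56 (equal medians) and 0.63 (quantile), Slc7a8 to 0.0222 and 0.14, Slc25a11 to 0.47, Slc6a6 to 0.11, Slc6a12 to 0.11 and Slc48a1 to 0.0271 (equal medians), Slc6a8 to 0.56, Slc7a6os to 0.41 and Slc30a1 to 0.10 (quantile), Slc1a5 between -0.53 and 0.26 (0.26 without control replicate 2) and Slc38a1 between -0.69 and 0.20 (0.20 without control replicate 3). With LPS plus Sal-B against LPS no gene named by the rule turned under any alternative listed in the methods. The precision is set by 2 libraries a group and by the unknown read depth, which weighs most on genes near 1 FPKM.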

Other observations

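Of the 173 solute carrier genes 10 were too low to test. Most were at their highest in control cells: Slc7a13, an amino acid carrier best known from kidney, was listed at 0 in all 4 treated libraries and read 0.480 and 1.76 FPKM in control cells. Slc7a4, an orphan relative of the cationic amino acid carriers, was listed at 0 with LPS plus Sal-B, at 0 and 0.302 FPKM with LPS, and at 0.856 and 1.04 FPKM in control cells. Slc18a3, the vesicular acetylcholine carrier, was the exception, at 0.625 and 0.419 FPKM with LPS plus Sal-B and listed at 0 in both LPS and both control libraries. These genes were chosen after their values were seen.

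The 4 genes whose Slc symbol names a partner or a neighbour of a carrier were not called higher in any comparison. Slc9a3r1, a scaffold that anchors sodium-proton exchangers at the membrane, read 6.04 and 5.601 FPKM with LPS plus Sal-B, 8.60 and 8.36 FPKM with LPS and 10.9 and 9.76 FPKM in control cells. Its 3 groups did not overlap. Its fall with LPS plus Sal-B against LPS (-0.48 ± 0.10, adjusted p = 0.0157, limma) was lost under every other scaling and without any 1 of those 4 libraries (adjusted p up to 0.126). Slc9a3r2, its relative, read 7.50 and 8.85 FPKM with LPS plus Sal-B, 5.82 and 2.74 FPKM with LPS and 1.33 and 10.2 FPKM in control cells, with control replicates further apart than any group means.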
